A study of Carassius auratus with 9 samples.

Results

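Muscle RNA-seq libraries of Hefang crucian carp, a farmed strain of Carassius auratus, were compared by how large a share of their reads mapped to the goldfish genome. In each of the 3 diets, the library of lowest mapped share was set against the library of highest mapped share, so that 6 of the 9 libraries were used. The libraries of lowest mapped share (hereafter low-share) were LA1, MA2 and HA2, and those of highest mapped share (high-share) were LA2, MA1 and HA1. This order was taken from the mapping statistics of the study and not from the gene counts. The remaining libraries LA3, MA3 and HA3 had the middle mapped share of their diet and were kept aside. The LA fish received a commercial basal diet without added methionine (Met) or lysine (Lys). The MA fish received the basal diet with 1.7% Met and 3.4% Lys added, and the HA fish received it with 3.4% Met and 3.4% Lys added, all for 8 weeks. The mapped share is a property of a library and not a treatment. Each library was 1 biological replicate of its diet, and the sources used here do not say how many fish it held or which tank they came from, so every p-value measures the spread between these libraries only.

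Goldfish and crucian carp descend from an ancestor that doubled its genome, and for most genes they still carry several similar copies. Copies of 1 gene often encode nearly the same protein, so the summed level of the copies describes how much of that message a muscle holds, while a single copy gives only its own part of it. Fast skeletal muscle, which forms most of the fillet, is dominated by transcripts for creatine kinase, parvalbumin, myosin and ribosomal proteins. In a piece of whole muscle, fewer cells of a type and less RNA per cell of that type cannot be told apart.

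The low-share libraries held 13962770 to 15839639 counts and the high-share libraries 14326677 to 17177610, and 22392 genes with enough counts were tested. Reads were thus counted to a similar depth in both classes. The 10 genes of highest count took 34.8% to 37.7% of the counts in low-share libraries and 39% to 42.0% in high-share libraries. Genes on scaffolds that are not placed on a chromosome took 12.0% to 12.2% in low-share libraries and 11% to 11.6% in high-share libraries. Both classes were muscle by their markers. Muscle creatine kinase (creatine kinase M-type, LOC113049569), the gene of highest count, had a log2 fold change of 0.13 ± 0.31 (SE), parvalbumin beta (LOC113046611) one of -0.02 ± 0.33, and a further creatine kinase copy (LOC113115064) one of -0.23 ± 0.28, none of them past the test.

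The libraries of a class were not equally alike. LA1 and HA2, both low-share but from different diets, were the most alike pair of all 9 libraries: the chi-square of their counts per degree of freedom was 5.09, against 17.3 to 85.9 in the other pairs. The counts of LA1 and HA2 thus differed by more than sampling noise and the libraries were kept as separate samples, but they differed less than any other pair. The test counts them as 2 of its 3 low-share libraries. Whether they are independent biological samples was not tested, and the p-values below rest on counting them so. The log2 ratios of low-share over high-share correlated across the 22392 genes with r = 0.65 between the LA and HA pairs, 0.25 between the LA and MA pairs and 0.30 between the MA and HA pairs. The LA and HA ratios have LA1 and HA2 as their low-share libraries, so their r carries the likeness of these libraries. Genes are not independent replicates, and these values are descriptions. The MA pair also differed least, with 20.2% of genes at least 2-fold apart, against 32.9% in the LA pair and 27.9% in the HA pair. Results that rest on particular pairs are therefore given pair by pair.

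Which genes differed between low-share and high-share libraries was asked with edgeR's quasi-likelihood test with diet as a block, in which a positive log2 fold change means higher in low-share libraries. After Benjamini-Hochberg adjustment 63 of 22392 genes passed at an adjusted p under 0.05 (0.281%), 35 of them higher (0.156%) and 28 lower (0.125%) in low-share libraries. Their differences were large: all 63 were at least 4-fold, with absolute log2 fold changes from 2.25 to 10.80 and a median of 4.30. In 62 of them the low-share and high-share libraries did not overlap, which was so for 27.1% of all genes. At an unadjusted p under 0.05 there were 3883 genes (17.3%), of which 1988 were higher (8.88%) and 1895 lower (8.46%). The 63 calls depended on which diet pairs entered. Without either LA library none passed (2058 genes at an unadjusted p under 0.05 without LA1, 2079 without LA2), without HA2 4 and without HA1 17 passed, and without MA2 or MA1, when only the LA and HA pairs carried the comparison, 2635 and 2590 passed. All 63 genes kept their direction in each of these 6 fits. They were picked from the same libraries, and without overlap in 62 of them a reversal was hardly possible, so this is a description and no test. DESeq2 on the same 6 libraries called 1095 genes (4.89%), among them all 63.

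Diet, tested in the same fit with the mapped-share class as block, gave no gene at an adjusted p under 0.05 with edgeR (0%), 599 at an unadjusted p under 0.05 (2.68%), and 37 of 21523 by a DESeq2 likelihood ratio test (0.172%). Split into parts, the sum of squares of log2 CPM over the tested genes in the 6 libraries was 44.3% between the classes, 27% between the diets and 28.7% residual. Among the 500 most variable genes the shares were 56.0%, 22.8% and 21.2%. The difference between the classes has 1 degree of freedom and that between diets has more. Counted gene by gene, the mean square of the class exceeded that of diet in 63.3% of the tested genes. These shares hold for the 6 libraries taken as the extremes of mapped share in each diet, without the middle libraries. They do not weigh class against diet over the whole series.

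The genes of smallest p included single copies that were all but absent from 1 class. They were named from called genes without overlap between the classes, so a lack of overlap in them is no further result. Levels below are CPM (counts scaled to a common library size, with TMM factors), listed in the order LA1, MA2 and HA2 for low-share and LA2, MA1 and HA1 for high-share libraries. Among the genes higher in low-share libraries, a copy annotated as V(D)J recombination-activating protein 1-like (LOC113066712, chromosome 50 of the goldfish assembly ASM336829v1, 4696682 to 4703031) had 28, 9.39 and 25.9 CPM in low-share libraries, against 0.0658, 0 and 0 CPM in high-share libraries. The high-share libraries thus held 1 read of it in all, and the low-share libraries 922. Its fitted log2 fold change was 9.50 (adjusted p = 0.0172), a size that depends on the prior count because the high-share libraries were near 0. RAG1 is the recombinase that rearranges antigen receptor genes in developing lymphocytes, but the copy annotated simply as rag1 had 0 CPM in all 3 low-share libraries and 0.132, 1.27 and 0 CPM in high-share libraries.

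A copy of ATP synthase subunit O (LOC113108526, chromosome 9, 16558783 to 16561148), which joins the catalytic head of the mitochondrial ATP synthase to its stalk, had 21.0, 23.1 and 24.3 CPM in low-share libraries, against 0.789, 1.02 and 0.607 CPM in high-share libraries. The 3 low-share libraries lay close together, as did the 3 high-share libraries, and the log2 fold change was 4.82 ± 0.32 (adjusted p = 0.0235). For nsun5, which encodes an rRNA methyltransferase, low-share libraries had 47.4, 26.6 and 42.6 CPM, against 3.49, 1.97 and 1.58 CPM in high-share libraries. The difference of 4.07 ± 0.34 in log2 units passed the test (adjusted p = 0.0293).

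**Figure D1:**
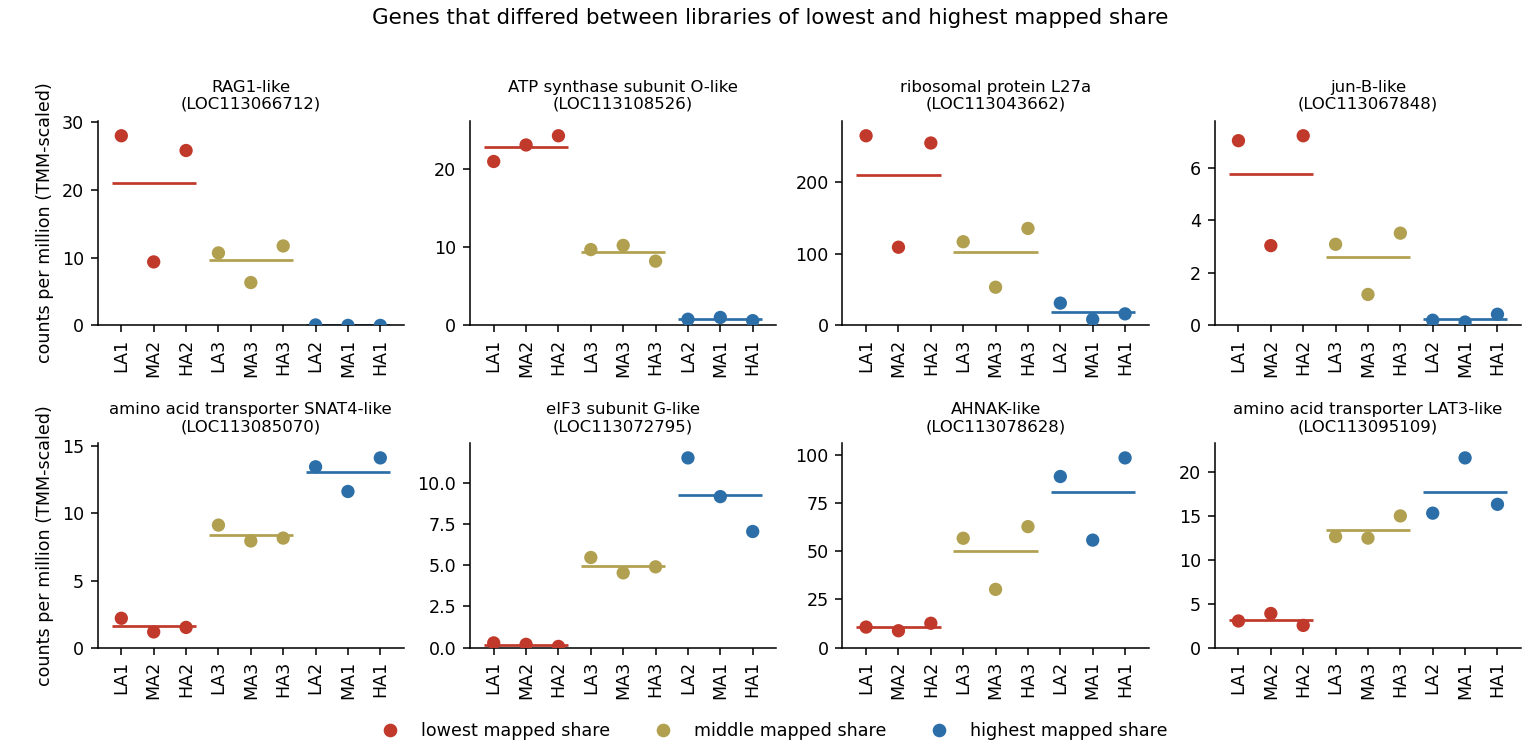
Level of 8 called genes in each of the 9 libraries, in CPM on linear axes that start at 0. Points are libraries, coloured by mapped-share class and ordered from lowest to highest, and horizontal lines are class means of 3 libraries. In the upper row each low-share library is the highest of its diet and in the lower row the lowest of its diet, and the 3 middle libraries, which were not used to call these genes, sit in between in the mean of each panel.

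Genes of translation were among the calls in both directions. Ribosomal protein L27a (LOC113043662) had 264.1, 108.9 and 254.0 CPM in low-share libraries, against 31.0, 8.40 and 16.1 CPM in high-share libraries (log2 fold change 3.58 ± 0.32, adjusted p = 0.0307). A copy of translation initiation factor 1b (LOC113119887) had 96.2, 56.1 and 93.5 CPM in low-share libraries, against 9.93, 7.38 and 11.8 CPM in high-share libraries (3.06 ± 0.27, adjusted p = 0.0307). Opposite to these, a copy of subunit G of initiation factor 3 (LOC113072795) had 0.282, 0.194 and 0.0682 CPM in low-share libraries, against 11.5, 9.16 and 7.04 CPM in high-share libraries (-5.65 ± 0.40, adjusted p = 0.0261). By the choice of named genes, none of the 3 overlapped between the classes. In the L27a copy MA2 was below LA1 and HA2, as MA1 was below LA2 and HA1, so the ratio within each diet remained large.

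Of the further genes higher in low-share libraries, the jun-B-like copy LOC113067848, an immediate early transcription factor, had 7.04, 3.04 and 7.23 CPM in low-share libraries, against 0.197, 0.127 and 0.425 CPM in high-share libraries. The ACSBG1-like copy LOC113067002, a long-chain fatty acid CoA ligase, had 11.8, 10.7 and 8.73 CPM in low-share libraries, against 0, 0.0636 and 0.182 CPM in high-share libraries. Myozenin-2-like LOC113063993, a Z-disc protein that binds calcineurin, had 52.1, 7.77 and 55.2 CPM in low-share libraries, against 1.84, 0.700 and 4.80 CPM in high-share libraries. By the choice of named genes the classes did not overlap in any of the 3, although MA2 was well below LA1 and HA2 in the myozenin-2 copy. The terminal nucleotidyltransferase 5C copy LOC113108535 (4.14 ± 0.33) and the limbic system-associated membrane protein-like copy LOC113058823 (4.99 ± 0.46) completed the 10 of smallest p among genes with a description. The uncharacterized gene LOC113105313, at 8.30 ± 0.67, had a p in the same range and is given here outside that rule.

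Of the genes lower in low-share libraries, an AHNAK-like copy (LOC113078628), a giant scaffold protein under the plasma membrane, had 10.6, 8.74 and 12.6 CPM in low-share libraries, against 88.9, 55.9 and 98.6 CPM in high-share libraries. A copy of large neutral amino acid transporter small subunit 3 (LAT3, LOC113095109), a carrier of leucine and other neutral amino acids, had 3.03, 3.88 and 2.52 CPM in low-share libraries, against 15.3, 21.6 and 16.3 CPM in high-share libraries. Sodium-coupled neutral amino acid transporter 4-like LOC113085070 had 2.18, 1.17 and 1.5 CPM in low-share libraries, against 13.5, 11.6 and 14.1 CPM in high-share libraries. In all 3 the highest low-share library was well below the lowest high-share library, and the log2 fold changes were -2.90 ± 0.27, -2.50 ± 0.26 and -3.05 ± 0.30.

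The interleukin-8-like copy LOC113073201, a chemokine that attracts neutrophils, had 0, 0 and 0.0682 CPM in low-share libraries, against 9.67, 4.01 and 4.13 CPM in high-share libraries. That was 1 read in all low-share libraries together, against 278. The spire1 gene LOC113119450, an actin nucleation factor, had 0.282, 1.94 and 0.341 CPM in low-share libraries, against 7.83, 24.4 and 6.74 CPM in high-share libraries. Both libraries of the MA diet were above the library of the same class in the other diets, and the low-share library was at least 10-fold below the high-share library in each diet. The MS4A15-like copy LOC113113119 (-4.37 ± 0.42), the DCBLD2-like copy LOC113108114 (-4.02 ± 0.33) and the USMG5-like copy LOC113044063 (-5.32 ± 0.40) were also among the 10 of smallest p with a description.

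Some genes had no read in any library of 1 class. There were 5289 genes at 0 in all 3 low-share libraries, of which 12 had at least 10 counts in every high-share library. There were 3671 genes at 0 in all 3 high-share libraries, of which 20 had at least 10 counts in every low-share library. A neurofilament medium polypeptide-like gene (LOC113038718, chromosome 21, 17346518 to 17351090), an intermediate filament protein of axons, had 4.79, 38.1 and 2.80 CPM in low-share libraries and 0 in every high-share library, 697 counts against 0. Against a floor of 3 counts over the group it was at least 240-fold higher in low-share libraries (239.9). An inter-alpha-trypsin inhibitor heavy chain H3-like gene (LOC113055483) had 10.5, 7.77 and 9.28 CPM in low-share libraries and 0 in every high-share library. It was at least 139.4-fold higher, and even in its 3 low-share libraries, while the neurofilament gene was highest in MA2.

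Most of the other genes of this kind given here were held by only some libraries of a class. Myosin-7 (LOC113068770), a slow and cardiac muscle heavy chain, had 0, 29.6 and 0 CPM in low-share libraries and 0 in every high-share library, so that MA2 alone held it. A TRIM39-like gene (LOC113084129) likewise had 18.1 CPM in MA2 and 0 in the other 5 libraries. On the other side, a class I histocompatibility gene (H-2 Q9-like, LOC113102785) had 0 in every low-share library and 0, 15.6 and 4.80 CPM in high-share libraries. A GIMAP8-like gene (LOC113085759), a GTPase of lymphocytes, was at 0 in every low-share library and had 8.95, 0 and 1.52 CPM in high-share libraries. An ABCG2-like gene (LOC113041350), a membrane efflux pump, was at 0 in every low-share library and present in all 3 high-share libraries at 4.60, 2.10 and 0.911 CPM, at least 38.1-fold lower in low-share libraries over the group. Apart from the ABCG2-like gene, these genes were present in some libraries of a class and at 0 in others.

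The other copies of a called gene differed less and were of either sign. For subunit G of initiation factor 3, the sum over the 3 copies was 53.3, 52.9 and 56.8 CPM in low-share libraries, against 52.8, 55.1 and 55.2 CPM in high-share libraries. The log2 fold change of the sum was 0.01, against -5.65 for the called copy. For ATP synthase subunit O the sum was 165.4, 177.0 and 164.9 CPM in low-share libraries, against 163.8, 196.4 and 195.6 CPM in high-share libraries. Its log2 fold change was -0.12, against 4.82 for the called copy, and the 2 other copies had values of -0.54 and -0.29. For terminal nucleotidyltransferase 5C the sum had a log2 fold change of -0.02, and for sodium-coupled neutral amino acid transporter 4 one of -0.10. For the transporter, the copy LOC113047908 had 22.5, 15 and 22.3 CPM in low-share libraries, against 9.73, 8.65 and 9.90 CPM in high-share libraries (1.05, adjusted p = 0.131), opposite to the called copy.

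In other genes the sum kept a part of the difference. The summed L27a copies had 797.9, 538.2 and 758.7 CPM in low-share libraries, against 412.0, 397.9 and 389.9 CPM in high-share libraries, with a log2 fold change of 0.79 (adjusted p = 0.205). Basigin, a partner of lactate transporters in the muscle membrane, had a called copy LOC113040072 with 118.5, 85.6 and 125.7 CPM in low-share libraries, against 23.9, 14.1 and 18.5 CPM in high-share libraries. Its sum was 187.9, 104.7 and 202.1 CPM in low-share libraries, against 99.98, 85.2 and 90.4 CPM in high-share libraries (0.80, adjusted p = 0.222). The classes did not overlap in either sum, and neither passed the test. Lysyl oxidase homolog 1, an enzyme that crosslinks collagen and elastin, kept its difference in the sum: the called copy LOC113118621 had 3.73, 3.11 and 4.91 CPM in low-share libraries, against 73.9, 56.9 and 35.6 CPM in high-share libraries. Its sum fell by 3.44 on the log2 scale (adjusted p = 0.0237). Some called genes without another tested copy kept theirs too. The sums for spire1 and LAT3 had log2 fold changes of -3.76 and -2.40 (adjusted p = 0.0199 and 0.0237).

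**Figure D2:**
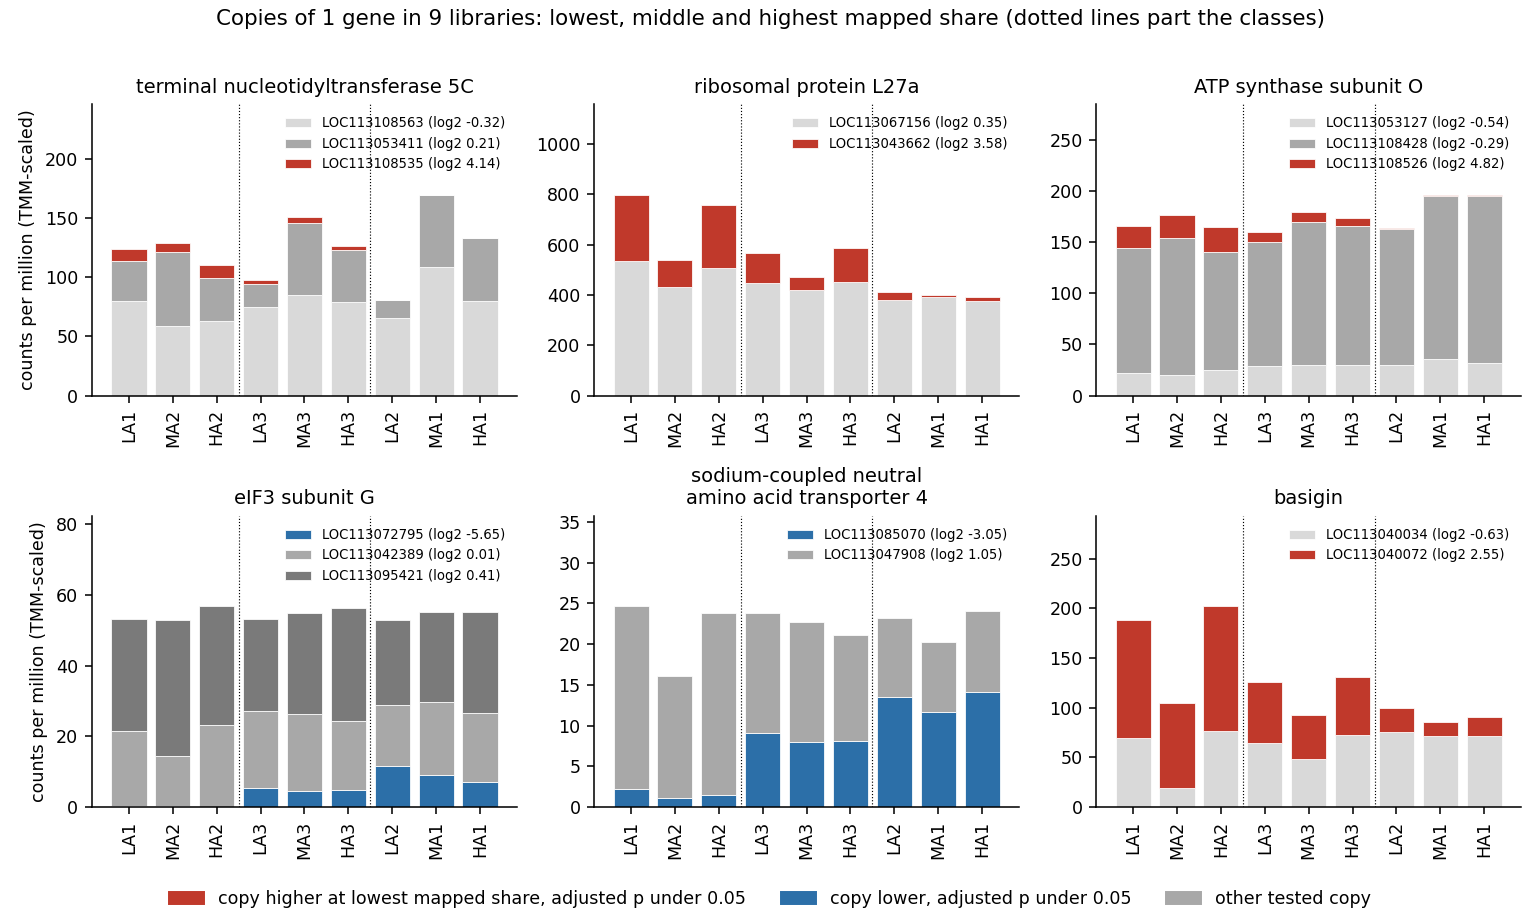
Levels of the tested copies of 6 genes, stacked, in the 9 libraries, in CPM on linear axes that start at 0, with log2 fold changes of low-share over high-share in the legends. Dotted lines part the low-share, middle and high-share libraries. The red or blue copy differed at an adjusted p under 0.05 while the height of the whole bar differed less, and not at all beyond rounding for subunit G of initiation factor 3 (log2 0.01).

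Of the 55 called genes with an informative description, 45 had at least 1 other tested copy, and in 32 of these (71.1%) at least 1 other copy had the opposite sign, against 63.7% of all 17612 tested genes with other copies. Of the 121 other copies, 63 had the opposite sign (52.1%, against 46.8% over all these genes), which is near the background. The median absolute log2 fold change was 3.95 for the called copy and 0.65 for the sum over its copies, the sum stayed under 2-fold in 34 of the 45, and it passed the test in 2. A copy picked for a small p differs more than its sum for that reason alone, so the same was counted over all 6485 descriptions with several tested copies. Of their 17612 single copies 19.2% were at least 2-fold and 4.55% at least 4-fold different. Of their sums 6.48% were at least 2-fold and 0.694% at least 4-fold different. At an unadjusted p under 0.05 the shares were closer, 17.8% of single copies and 15.9% of sums. The 3810 genes with 1 tested copy stood near the single copies in size, with 20.5% at least 2-fold and 4.17% at least 4-fold different. At an unadjusted p under 0.05 were 14.3% of them. Over all genes summed by description, 22 of 11762 passed at an adjusted p under 0.05 (0.187%). Genes of 1 description share letters to an unknown extent, and how reads that fit several copies were counted is not given in the sources used here, so the split of reads among copies is uncertain. The mapping statistics of the study do give the share of mapped reads that mapped to several places. In each diet it was lower in the low-share than in the high-share library, clearly in LA and HA and only slightly in MA. Its part in the differences between copies was not tested.

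No description had copies called in both directions at an adjusted p under 0.05. Of 584 with several copies at an unadjusted p under 0.05, 285 had them in both directions. Over all genes with several tested copies, 46.8% of other copies had the opposite sign, so this count is no result about the copies. With all 9 libraries in the fit, where 10.4% of genes were called, 142 descriptions had copies called both ways. How many had several called copies there is not given here. Those named here were chosen after their values were seen. For subunit 1 of the BLOC-1 complex, which serves the biogenesis of lysosome-related organelles, the copy LOC113080110 had 3.17, 3.95 and 4.02 CPM in low-share libraries, against 0.592, 0.509 and 0.364 CPM in high-share libraries. Its copy LOC113064699 had 0, 0.0647 and 0.0682 CPM in low-share libraries, against 3.35, 1.65 and 3.22 CPM in high-share libraries. The pair mirrored each other, with log2 fold changes of 2.91 and -5.65 (adjusted p = 0.0649 and 0.054). For CSL4, a subunit of the RNA-degrading exosome, the copies LOC113097626 and LOC113075094 had log2 fold changes of 2.95 and -1.69 (adjusted p = 0.0685 each). The sum over the CSL4 copies was still lower in low-share libraries, at -0.89 (adjusted p = 0.153). For USMG5, a small subunit of the ATP synthase, the copy LOC113044047 was at 2.19 (adjusted p = 0.0729) beside the called copy LOC113044063 at -5.32.

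The middle library of each diet was not used in the comparison. In the called genes it lay between the low-share and the high-share library of its diet for 62 of 63 genes in LA, 62 in MA and 63 in HA, and for 61 genes in all 3 diets. In the ATP synthase copy LOC113108526 it had 9.71, 10.2 and 8.23 CPM in LA3, MA3 and HA3. On a linear scale from 0 at the high-share library to 1 at the low-share library, its median position was 0.39 in LA, 0.45 in MA and 0.40 in HA. The genes were called because the other 2 libraries of each diet lay far apart, which leaves a wide space between them, so these counts are a description and have no test.

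Over all genes at least 8-fold different between the low-share and high-share libraries of a diet, the middle library lay between for 97.5% of 761 genes in LA, 98.5% of 325 in MA and 98.2% of 571 in HA. Its median position was 0.39 (quartiles 0.32 and 0.49) in LA, 0.47 (0.37 and 0.57) in MA and 0.42 (0.33 and 0.51) in HA. The positions of different genes thus lay mostly around 1 value per diet, a little nearer the high-share than the low-share library. These genes too were chosen because the outer libraries lay far apart, so the counts between them are a description and have no test. As 1 example of a gene held by MA2 and not by MA1, myosin-7 (LOC113068770) had 14.3 CPM in MA3, against 29.6 CPM in MA2 and 0 in MA1.

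**Figure D3:**
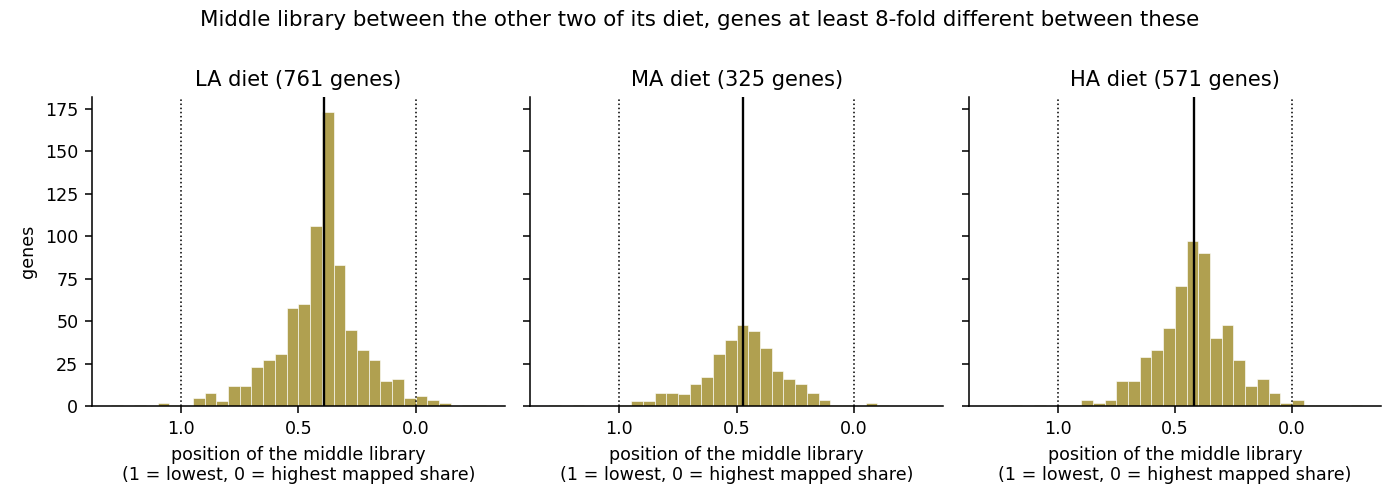
Position of the middle library between the low-share library (1, left dotted line) and the high-share library (0, right dotted line) of its diet, in genes at least 8-fold different between these. Bars count genes, and the solid line is the median (0.39 in LA, 0.47 in MA and 0.42 in HA). The bars gather about the median and few fall outside the dotted lines.

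By function, the genes were read through lists made from their descriptions, each set beside all tested genes, whose median log2 fold change was -0.02 with 48.6% positive. Of all tested genes, 0.156% were called higher and 0.125% lower. At an unadjusted p under 0.05 the shares were 8.88% and 8.46%. With so few genes called, a list with none called says little about its members. Cytosolic ribosomal proteins, which build the ribosome, stood highest among the large lists: 178 of 212 tested members had a positive log2 fold change, with a median of 0.44. At an adjusted p under 0.05, 3 were higher and 1 was lower, and at an unadjusted p under 0.05, 51 were higher and 9 lower. Their summed level was 70365, 53010 and 68620 CPM in low-share libraries, against 49682, 47369 and 43509 CPM in high-share libraries. The classes did not overlap, and the median was positive in each diet pair, at 0.50 in LA, 0.19 in MA and 0.61 in HA. Most of the 34 lists overlapped in their sums, and 27.1% of all tested genes were themselves without overlap. A sum without overlap, here and below, is therefore a description and not a test. The 3 called higher were copies of L27a, L36 and L39. The L39 copy LOC113058153 had 15.1, 12.2 and 14.7 CPM in low-share libraries, against 0.395, 0 and 0 CPM in high-share libraries. An abundant member, the L3-like gene LOC113042745, had 2634, 1954 and 2438 CPM in low-share libraries, against 1961, 1614 and 1485 CPM in high-share libraries (0.47, adjusted p = 0.404).

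Translation factors and tRNA synthetases had a median of 0.23, with 128 of 196 positive, 1 called higher and 1 called lower. The diet pairs did not behave alike, with medians of 0.32 in LA, -0.06 in MA and 0.32 in HA. Their summed level overlapped, at 18925 to 28098 CPM in low-share and 17113 to 21716 CPM in high-share libraries. Mitochondrial ribosomal proteins had a median of 0.06, with 60 of 111 positive and none called. At an unadjusted p under 0.05, 11 were higher and 7 lower, near the shares of all tested genes. Their summed level was 437.6, 421.4 and 430.3 CPM in low-share libraries, against 394.8, 469.4 and 447.9 CPM in high-share libraries, which overlapped.

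Heat shock proteins and chaperones, which fold and refold proteins, had a median of 0.23 with 129 of 195 positive, none called, and 41 higher and 9 lower at an unadjusted p under 0.05. Their summed level was 5428, 4188 and 4975 CPM in low-share libraries, against 3280, 3422 and 3299 CPM in high-share libraries, without overlap. Heat shock cognate 71 kDa protein-like LOC113114922, the most abundant member, had 1010, 632.1 and 836.2 CPM in low-share libraries, against 187.7, 277.8 and 336.9 CPM in high-share libraries. Its log2 fold change of 1.63 did not pass the test (adjusted p = 0.11). The myosin chaperone unc45b had 388.3, 285.6 and 341.7 CPM in low-share libraries, against 169.6, 165.1 and 137.1 CPM in high-share libraries (1.10, adjusted p = 0.135). Not every member lay on this side: a heat shock 70 kDa protein-like copy (LOC113046943) had 8.66, 1.88 and 9.96 CPM in low-share libraries, against 35.1, 15.9 and 24.7 CPM in high-share libraries.

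Immediate early and stress genes had a median of 0.29, with 60 of 90 positive and 1 called, the jun-B-like copy. Their summed level was 5589, 2967 and 4916 CPM in low-share libraries, against 1343, 3477 and 2729 CPM in high-share libraries, so that the MA pair ran the other way. Glycolysis and glycogen genes had a median of 0.22, with 56 of 91 positive and 1 called, a copy of the catalytic chain of muscle phosphorylase kinase (LOC113098387) with 30.1, 29.3 and 29.5 CPM in low-share libraries, against 3.88, 1.34 and 2.43 CPM in high-share libraries. Their summed level overlapped between the classes, at 46483 to 51969 CPM in low-share and 32175 to 62522 CPM in high-share libraries. By diet pair their median was 0.38 in LA, 0.04 in MA and 0.35 in HA.

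Oxidative phosphorylation genes showed no common direction. Their median was 0.05, with 98 of 187 positive, and 2 copies were called higher and 1 lower. The cytochrome c oxidase subunit 6A copy LOC113047050 had 39.9, 41.2 and 41.8 CPM in low-share libraries, against 3.68, 2.80 and 7.23 CPM in high-share libraries, while the subunit 5B copy LOC113112344 had 0.564, 0.777 and 0.955 CPM in low-share libraries, against 4.87, 9.54 and 5.28 CPM in high-share libraries. Methionine and one-carbon metabolism, the pathway of the amino acid added to the feed, had a median of -0.07, with 21 of 44 positive and none called. Fast sarcomere genes had a median of 0.10, with 43 of 76 positive and none called, and their summed level overlapped, at 298575 to 386069 CPM in low-share and 287352 to 420522 CPM in high-share libraries.

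Among fast sarcomere genes single copies still differed between libraries. A fast troponin I-like copy (LOC113051645), an inhibitory subunit of the thin filament, had 2.25, 167.5 and 2.46 CPM in low-share libraries, against 0.329, 23 and 0.729 CPM in high-share libraries. It was highest in MA in both classes, and the log2 fold change of 2.48 did not pass the test (adjusted p = 0.0649). A fast myosin heavy chain-like copy (LOC113079465) had 196.5, 99.5 and 213.6 CPM in low-share libraries, against 1201, 272.2 and 894.8 CPM in high-share libraries (-2.05, adjusted p = 0.0748).

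Antigen presentation genes lay the other way. The list had a median log2 fold change of -0.55, with 14 of 41 positive, none called, and 3 higher and 16 lower at an unadjusted p under 0.05. Its summed level was 646.2, 533.1 and 695.2 CPM in low-share libraries, against 1150, 1094 and 1050 CPM in high-share libraries, without overlap, and the median was negative in each diet pair (-0.72 in LA, -0.45 in MA and -0.52 in HA). The member of highest level, an H-2 class I Q10-like gene (LOC113119102) that presents peptides to cytotoxic T cells, had 44.9, 119.5 and 44.3 CPM in low-share libraries, against 279.0, 258.0 and 225.6 CPM in high-share libraries (-2.04, adjusted p = 0.0894). Beta-2-microglobulin-like LOC113107438, the light chain of class I molecules, had 33.2, 31.0 and 33.8 CPM in low-share libraries, against 85.3, 101.0 and 103.8 CPM in high-share libraries (-1.56, adjusted p = 0.0768). A class I-related gene (LOC113119916) ran against the list, with 74.0, 0 and 86.1 CPM in low-share libraries, against 0, 0 and 0.668 CPM in high-share libraries, and was held by LA1 and HA2 but not by MA2.

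Leukocyte markers had a median of -0.56, with 14 of 57 positive, none called, and 3 higher and 14 lower at an unadjusted p under 0.05. The diet pairs did not behave alike: the median was -1.41 in LA, 0.02 in MA and -0.31 in HA. Their summed level was 196.2, 272.3 and 186.6 CPM in low-share libraries, against 542.2, 230.5 and 218.8 CPM in high-share libraries, so that LA2 stood above the rest and the classes overlapped. Of the 288 listed genes in the table, 99 had no count in any of the 6 libraries. The pan-leukocyte marker receptor-type tyrosine-protein phosphatase C (LOC113039994) had 11.8, 8.16 and 7.50 CPM in low-share libraries, against 16.0, 8.08 and 7.10 CPM in high-share libraries. The leukocyte actin regulator coronin-1A-like LOC113046356 had 11.7, 10.9 and 10.9 CPM in low-share libraries, against 48.5, 12.9 and 11.3 CPM in high-share libraries. The part of leukocyte content in the lower level of the antigen presentation genes was not tested.

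Erythrocyte and iron genes had a median of -0.41 (-0.36 in LA, -0.09 in MA and -0.67 in HA), with 16 of 49 positive and none called. Hemoglobin subunit alpha (LOC113082666) had 231.7, 277.1 and 236.0 CPM in low-share libraries, against 294.1, 423.8 and 506.6 CPM in high-share libraries (-0.69, adjusted p = 0.279). Ferritin heavy subunit (LOC113051955), which stores iron, lay the other way, with 274.9, 155.7 and 281.0 CPM in low-share libraries, against 69.1, 95.7 and 109.7 CPM in high-share libraries (1.35, adjusted p = 0.138). Endothelial markers had a median of -0.32 (-0.65 in LA, 0.06 in MA and -0.39 in HA), and smooth muscle and pericyte markers one of -0.05 (-0.58, 0.66 and -0.14). Nerve and Schwann cell markers had a median of 0.00 and skin and epithelial markers one of 0.04. In the nerve list the neurofilament gene given above was the only call.

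Slow and cardiac sarcomere genes stood high in MA2 and MA3. Their summed level was 28.1, 483.1 and 23.8 CPM in low-share libraries, against 23.4, 22.1 and 26.4 CPM in high-share libraries, and 252.1 CPM in MA3. The slow and cardiac troponin C gene LOC113094721 had 0.564, 54.8 and 0.273 CPM in low-share libraries, against 0.263, 0.509 and 0.364 CPM in high-share libraries. Only 7 of the 80 genes passed the filter on low counts, since the others were present in too few libraries, so the list was not read by its median. Genes read as markers of liver, gut and pancreas had a summed level of 202.0, 429.8 and 202.5 CPM in low-share libraries, against 124.5, 87.7 and 81.8 CPM in high-share libraries, without overlap. In LA1 and HA2 most of this level came from leukocyte elastase inhibitor-like genes, which are no markers of these organs. In MA2 a large part came from an apolipoprotein L3-like gene (LOC113039152) with 199.5 CPM. The lack of overlap in the sum is therefore not a result about markers of these organs. The chymotrypsin-like elastase gene LOC113049896, a digestive enzyme of the pancreas, had 19.3, 87.5 and 19 CPM in low-share libraries, against 0.395, 0 and 0.243 CPM in high-share libraries. The classes did not overlap, and its log2 fold change of 7.17 did not pass the test (adjusted p = 0.0622). Whether RNA from other tissues took part in any of these differences was not tested.

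**Figure D4:**
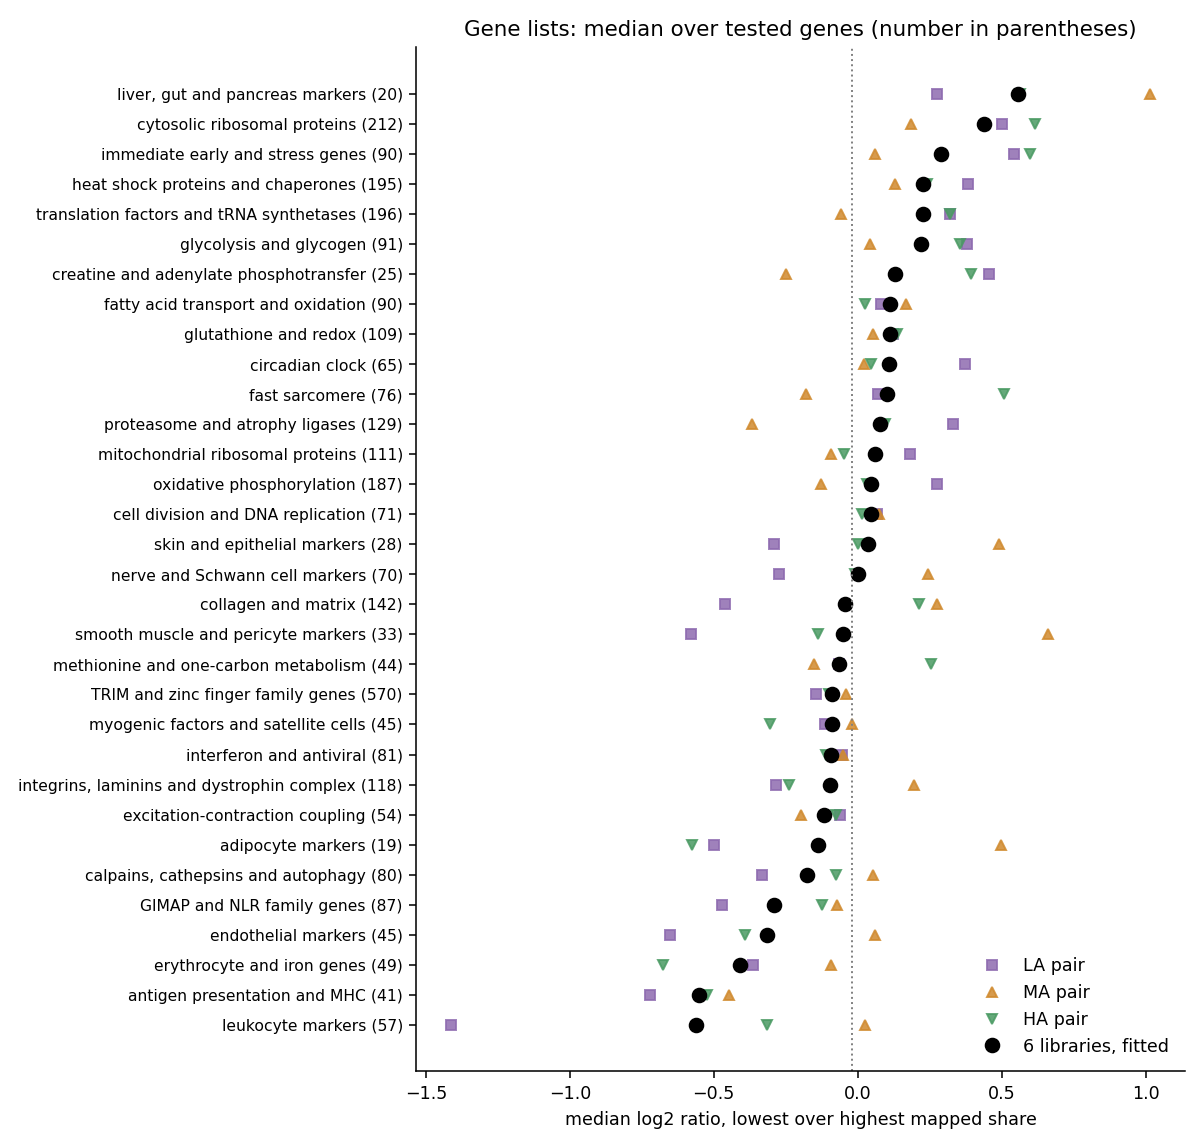
Median log2 ratio of low-share over high-share libraries for gene lists with at least 15 tested members, from the fit of 6 libraries (black points) and within each diet pair (coloured marks). The dotted line is the median of all 22392 tested genes (-0.02). Cytosolic ribosomal proteins (0.44) lie right of it and antigen presentation genes (-0.55) left of it in every diet pair, while leukocyte markers range from -1.41 in the LA pair to 0.02 in the MA pair.

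**Figure D5:**
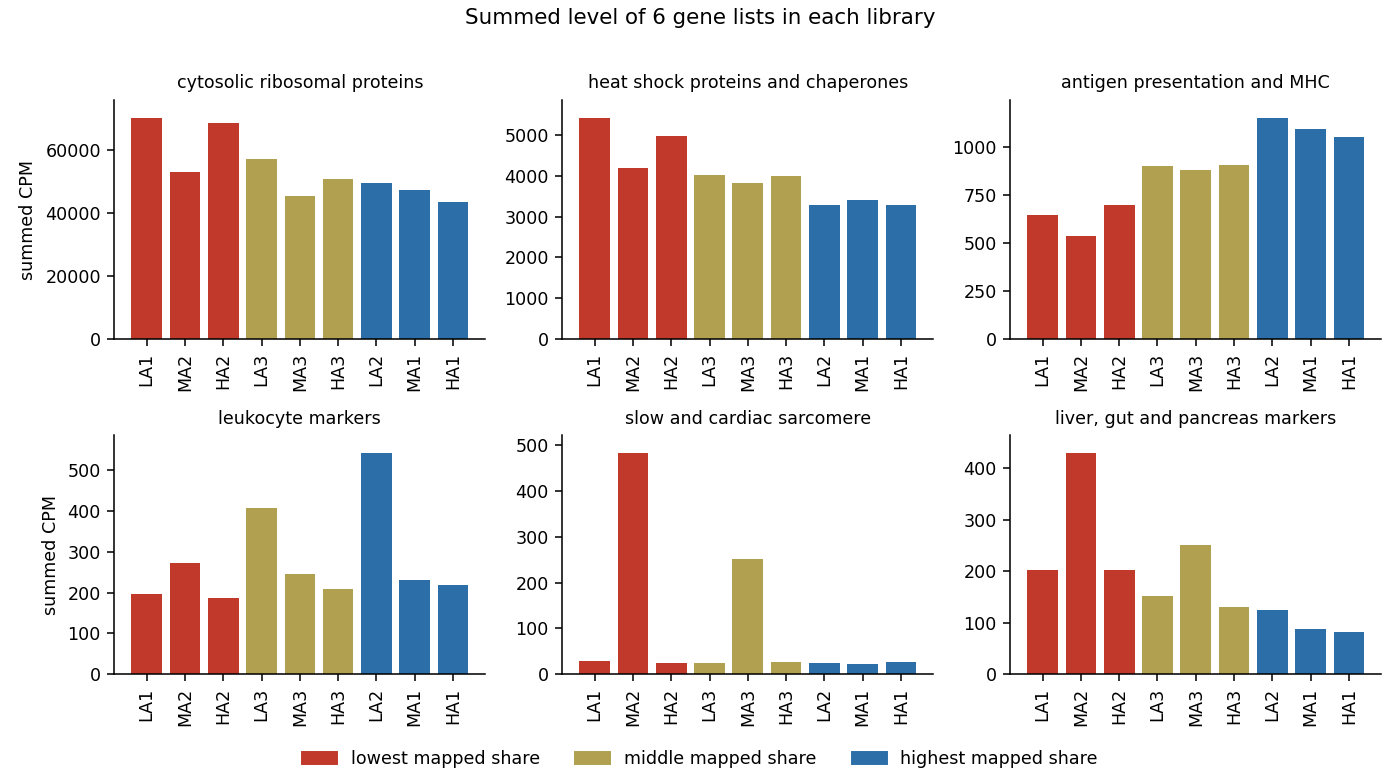
Summed level of 6 gene lists in each of the 9 libraries, in CPM on linear axes that start at 0, ordered from lowest to highest mapped share. Low-share bars are above all high-share bars for ribosomal proteins, chaperones and the liver, gut and pancreas list, and below them for antigen presentation, whereas LA2 leads the leukocyte markers and MA2 and MA3 hold nearly all slow and cardiac sarcomere counts. Most of the liver, gut and pancreas bar in LA1 and HA2 is from leukocyte elastase inhibitor-like genes, which are no markers of these organs.

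The called genes lay on many chromosomes, but genes that differed were not spread evenly along the genome. Of the 63 called genes, 46 were on placed chromosomes (0.246% of those tested) and 17 on unplaced scaffolds (0.461%). At an unadjusted p under 0.05 the shares were 16.5% of placed and 21.6% of unplaced genes. The placed genes lay on 28 chromosomes or linkage groups, with at most 4 on 1 of them, and no 2 neighbouring tested genes were both called. Over the 50 chromosomes or linkage groups with at least 100 tested genes, the share at an unadjusted p under 0.05 ranged from 10.8% to 28.4%, with a median of 15.8%. The highest share was on linkage group LG28B, where 3 of 134 tested genes were called. Genes next to a gene at an unadjusted p under 0.05 were themselves at that level in 22.3% of cases, against 17.3% of all tested genes. In 793 neighbouring pairs both genes were at that level, and 568 of these pairs had the same direction (71.6%, against 55% of all neighbouring pairs).

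The calls were not spread evenly over gene length and level. With genes split into 5 groups of equal size by length, the median log2 fold change was 0.10 in the shortest and -0.07 in the longest group. The shortest group held 26 of the 63 called genes and the longest 7, and 20.1% and 16.2% of these groups were at an unadjusted p under 0.05. Split by mean count, the median was -0.11 in the lowest and 0.10 in the highest group. The lowest group held 1 called gene, and the next to highest and the highest group held 22 and 17. The difference between low-share and high-share libraries could not be compared between diets by a test, since each diet held 1 library of each class.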

How the data were processed

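Poly(A)-selected muscle RNA was sequenced as paired ends. The deposited table held whole read counts per gene, and FPKM values that the authors computed from these counts, the listed gene length and the library total. Coordinates were those of goldfish assembly ASM336829v1. The aligner, the counter, the strand setting and the handling of reads that fit several copies were not given in the sources used here. DESeq2 was named in the submitters' processing notes. The table's own fold change and p-value columns were not used. Of 76298 genes 48369 had a count, and 22392 kept by filterByExpr were tested in the 6 libraries with edgeR 4.0.16 in R 4.3.3 (TMM, quasi-likelihood test, diet as block, 2 residual degrees of freedom, Benjamini-Hochberg adjusted p under 0.05). CPM values were TMM-scaled over all 9 libraries. Genes were summed as copies when their descriptions were equal after removal of "-like" and isoform words. Gene lists (34) were matched on descriptions, and some patterns also caught other genes: trypsin took inter-alpha-trypsin inhibitors, elastase took leukocyte elastase inhibitors, transferrin took an acetyl-transferring enzyme and atrial took natriuretic peptide receptors. The libraries, lists and tests were chosen with earlier results of these data known. Named genes, taken from those with a description, were the 10 called higher and the 10 called lower of smallest p without overlap between classes, the 3 of highest count, up to 3 per list, and 5 at 0 in each class. One gene that this rule would name is not reported here. The fit was also tested on simulated counts, drawn with means and dispersions estimated from these data. Alternatives were other size factors, DESeq2 1.42.0, limma 3.58.1 on log2(FPKM + 1), other filters, other blocks, all 9 libraries, summed copies and leaving out each library. The total counts of 13962770 to 17177610 limit genes of few reads most, and a count of 0 allows up to 3 counts over a group, for counting error only. Figures were drawn with matplotlib 3.10.9.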

Additional observations from a re-analysis of the deposited data

How the results depend on the processing

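The count of genes that passed depended on the setting. The 63 genes became 63 with relative log expression size factors, 1095 with DESeq2, 2035 without a filter on low counts, 16 with at least 10 counts in every library, 2488 with all 9 libraries in 3 classes, 3233 with mapped-share rank as a linear term, 933 without LA1 and HA2, 535 without the diet block, 224 with limma-trend on log2(FPKM + 1) and 22 with summed copies. The fit of 9 libraries in 3 classes has 4 residual degrees of freedom against 2, and the cause of its larger count was not tested. The fit without LA1 and HA2 left MA2 as the only low-share library. Its count and directions therefore rest on MA2 and cannot show whether the class difference holds without that pair. All 63 genes kept their direction in each of these fits, except that under the filter of 10 counts 20 of them had a value, and in the summed fit genes were not matched. These fits share libraries with the one that picked the genes, so a kept direction is no independent evidence. Leaving out each of the 6 libraries in turn gave 0 to 2635 genes. Diet gave 0 genes with edgeR under either size factor and without the class block, and 37 by the DESeq2 likelihood ratio test, which was added after seeing the data. Descriptions with copies called both ways numbered 0 in the comparison of 6 libraries and 142 with all 9 libraries, also added after seeing the data. Of the 34 gene lists, 19 had a median above that of all tested genes, and 17 to 19 without each library in turn. Replicate number went in part with mapped-share class. Number 3 was the middle library of every diet. In MA and HA number 1 was high-share and number 2 low-share, and in LA the reverse. Between MA and HA, numbers 1 and 2 correlated at 0.29 and 0.27. Between LA and HA, where a number stands for opposite classes, they correlated at -0.61 and -0.60. Between LA and MA, likewise opposite, the values were -0.24 and -0.23. These are not correlations of raw levels. For number 3 the values lay between 0.05 and 0.14. In this check of replicate numbers, 5 of the 9 libraries were closest to their own number, by a measure not given here. By the chi-square of counts per degree of freedom, every library was nearest to one of another number, such as LA1 to HA2 (5.09). Number 3 could not be told apart from the middle class. Numbers 1 and 2 were not fixed to a class, since LA had them the other way round from MA and HA. With the replicate block 26 genes passed, 16 of them among the 63. With 3 libraries per class and 2 residual degrees of freedom, no difference under 4-fold was called in the comparison of 6 libraries, and a smaller one that missed the test was not shown to be absent.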
